A study of Mus musculus with 2 samples.

Results

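Immediate-early and heat-shock genes were followed across cell classes in YFP-positive liver cells of a mouse model of hepatocellular carcinoma. The set held 35 named genes, 22 immediate-early and 13 heat-shock, out of 31053 genes listed in the deposited matrices, and all 35 were found in both. The genes are a list of names, fixed without a threshold on their values but with earlier results of these data known. The cells came from untreated Rb family triple knockout mice, a model that lacks the retinoblastoma family genes Rb1, Rbl1 and Rbl2 in its target cells. YFP marks cells in which Cre has recombined floxed alleles, and neither the promoter nor the vector that brings Cre is given in the sources used here. One library held macroscopic lesions, for which neither the number nor the age of the mice is given in the sources used here. The other held early lesions from a pool of 3 mice of unstated age, with no map from cells to mice. Both libraries come from knockout mice, and no library of undeleted liver was analysed here. Tissue was digested with enzymes and sorted by flow cytometry before droplet capture (10x 3′ v3 chemistry).

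Immediate-early genes are transcribed within minutes of a stimulus without new protein synthesis. Many encode subunits of the AP-1 transcription factor (Fos and Jun proteins) or zinc-finger factors, and others encode feedback inhibitors of the same signals. Heat-shock genes encode chaperones that hold and refold proteins, and heat-shock factor 1 (HSF1) binds heat-shock elements in their promoters when unfolded protein accumulates. Both programmes are also known to respond to enzymatic digestion of tissue, a step that both libraries went through and whose part in the levels was not tested.

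The heat-shock element is shown in the promoters of 3 inducible members with different leading cell classes, Hspa1a and Hspa1b (T cells) and Hspb1 (endothelial cells, hepatocytes and duct cells). Each window holds the 250 bases before the RefSeq start of the gene (GRCm38.p6, read 5′ to 3′ on the gene's own strand), and capitals mark the letters GAANNTTC. Hspa1a lies at chr17:34972157-34972406 (minus strand), Hspa1b at chr17:34959239-34959488 (minus strand) and Hspb1 at chr5:135887669-135887918 (plus strand).
Hspa1a: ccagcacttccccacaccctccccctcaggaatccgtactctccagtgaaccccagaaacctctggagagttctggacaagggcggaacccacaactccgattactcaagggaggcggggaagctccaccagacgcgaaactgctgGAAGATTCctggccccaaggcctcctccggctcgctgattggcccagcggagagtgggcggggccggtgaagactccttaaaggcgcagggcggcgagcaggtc
Hspa1b: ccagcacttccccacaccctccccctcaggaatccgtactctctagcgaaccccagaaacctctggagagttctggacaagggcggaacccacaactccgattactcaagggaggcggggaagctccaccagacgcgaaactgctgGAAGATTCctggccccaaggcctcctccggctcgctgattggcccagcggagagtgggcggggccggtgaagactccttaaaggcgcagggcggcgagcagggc
Hspb1: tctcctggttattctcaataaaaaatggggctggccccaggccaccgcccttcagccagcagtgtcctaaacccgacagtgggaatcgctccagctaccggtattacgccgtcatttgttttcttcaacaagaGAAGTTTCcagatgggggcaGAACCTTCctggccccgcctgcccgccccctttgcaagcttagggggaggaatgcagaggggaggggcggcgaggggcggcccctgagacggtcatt
The windows of Hspa1a and Hspa1b differ at 3 bases of 250, and each holds 1 such element, 104 bases before the start. The window of Hspb1 holds 2, the first 117 bases before the start. Windows were matched for 30 of the 35 members; Egr1, Ier2, Hsp90aa1, Hsp90ab1 and Hspa8 were not matched. GAANNTTC or TTCNNGAA, each of which reads the same on both strands, occurred in 7 of 10 matched heat-shock genes and in 4 of 20 matched immediate-early genes, against 12.8% of all 32851 windows. The CRE (TGACGTCA) occurred in Dusp1 and in 1.55% of all windows, and the AP-1 element (TGANTCA, both strands) in Zfp36l1, Bag3 and Hspa5 and in 6.75%. The CArG box occurred in Egr2 and Zfp36 and in 1.47%. A member with several windows was counted if any of them held the letters, whereas the shares are of single windows. The 7 heat-shock genes include Hspa1a and Hspa1b, whose windows are nearly the same. The motifs could overlap within a window, and a match is a run of letters in it and not evidence of binding.

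The macroscopic library held 256 barcodes and 7271368 UMIs (distinct captured RNA molecules), and the early library 3221 barcodes and 12637053 UMIs. Barcodes with at least 1000 UMIs were used, 241 macroscopic and 2620 early. They were assigned to classes by raw UMIs of gate genes: albumin for hepatocytes, keratins Krt19 and Krt7 for bile duct cells, Clec4f, Cd5l and Marco for Kupffer cells (the resident liver macrophages), and Gpnmb and Mmp12 for other macrophages. Plvap and Gpihbp1 gated endothelial cells, and Cd3e and Trbc2 gated T cells. Hepatocyte barcodes were split at 0.05% of UMIs from Malat1, a nuclear RNA. No gate was passed by 77 macroscopic and 246 early barcodes, and several gates were passed by 7 and 123. Each class held the markers of its name that the gate did not use, with exceptions. In the macroscopic endothelial class hepatocyte markers (9307 CPM summed) exceeded endothelial markers (3681 CPM), and fibroblast markers stood at 2974 CPM. CPM is the UMI count of a gene scaled to the same total in every class. The macroscopic other-macrophage class held hepatocyte markers (8354 CPM) beside its own markers at 17075 CPM. The early duct class held hepatocyte markers (4841 CPM) above its own duct markers (3121 CPM), and 10 of its 101 barcodes passed the hepatocyte gate. In the early endothelial class Kupffer markers (7051 CPM) exceeded endothelial markers (3496 CPM), and 8 of its 25 barcodes passed another gate. The early T cell class held macrophage markers at 5417 CPM, above its T cell markers at 3518 CPM. The part of such other cells in the results was not tested beyond the barcodes of exactly 1 gate. Xist had 0 macroscopic and 10348 early UMIs, and 4 Y-linked genes had 754 and 6. Lesion stage, library and sex of the mice therefore cannot be told apart in any difference between the stages below. Each stage has a single library, so stages were compared by size, at a limit of 2-fold, without a test. Intervals in parentheses are 95% intervals of counting error and hold no variation among mice or preparations.

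Heat-shock genes together took a larger share of RNA in every macroscopic class that could be compared. Summed over the 13 genes they stood at 14769 CPM in macroscopic Malat1-retaining hepatocyte barcodes, against 5175 CPM in early ones. In other macrophages the sums were 12014 CPM macroscopic and 5852 CPM early, in endothelial cells 18205 CPM and 3983 CPM, and in T cells 19659 CPM and 8478 CPM. The 22 immediate-early genes together were also higher in each of these 4 macroscopic classes, at 5914 CPM against 2930 CPM early in hepatocytes and 4644 CPM against 2755 CPM early in other macrophages. They reached 7593 CPM in macroscopic and 2949 CPM in early endothelial cells, and 7946 CPM in macroscopic and 3552 CPM in early T cells. Among all classes of either library, the early duct cells had the highest immediate-early sum, 15359.6 CPM. Early Kupffer cells had 2363 CPM of immediate-early and 4029 CPM of heat-shock genes. Macroscopic duct cells and Kupffer cells, with 1 and 4 barcodes, and early Malat1-low hepatocytes, with 4, were too few for a comparison. They had 81, 623 and 2 immediate-early UMIs and 352, 1141 and 13 heat-shock UMIs.

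**Figure D1:**
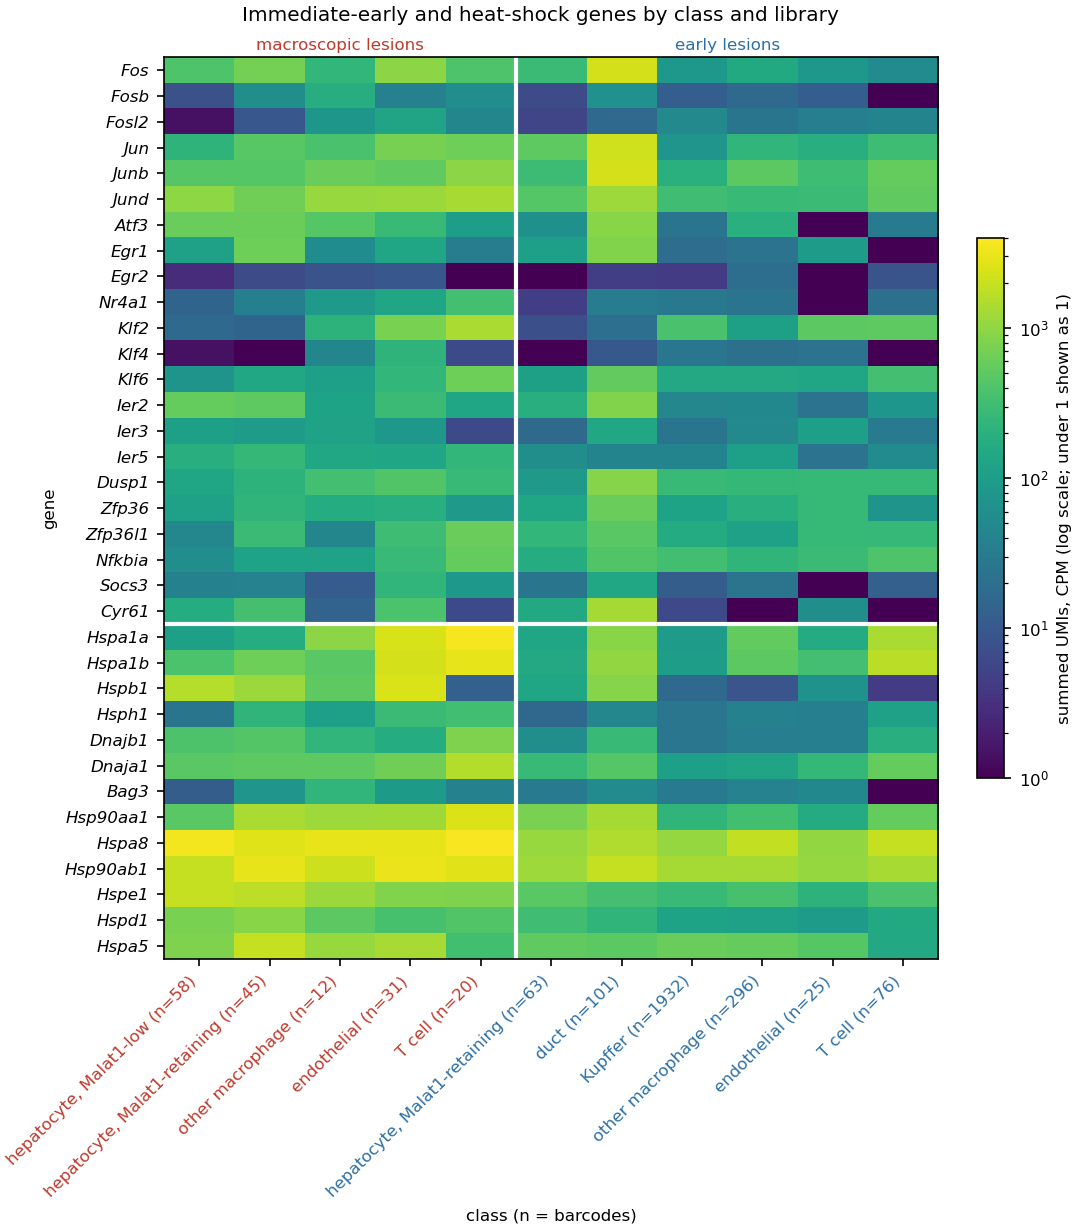
Level of each of the 35 genes (down the page; immediate-early above the white line, heat-shock below) in each class with at least 10 barcodes (across; macroscopic in red, early in blue), as CPM of summed UMIs on a log colour scale. Across the columns, Fos, Jun and Junb are brightest in early duct cells (2350.0, 2165 and 2325 CPM) and Hspa1a in macroscopic T cells (3531 CPM).

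In Malat1-retaining hepatocyte barcodes, 45 macroscopic (3872359 UMIs) and 63 early (1063333 UMIs), 34 of the 35 members were measured, that is, had at least 20 UMIs over both sums. Klf4, with 2 macroscopic and 0 early UMIs, was not. At least 2-fold higher in the macroscopic sum were 21 of the 34, where 11.4% of 10332 measured genes were, and 0 were 2-fold lower, where 13.9% of genes were. The members' median log2 ratio was 1.29, against -0.09 over all measured genes. The heat-shock genes had 10 of 13 at least 2-fold higher and a median of 1.53, and the immediate-early genes 11 of 21 and a median of 1.19. After each barcode was thinned to 1000 UMIs, 8 of the 18 members still measured were at least 2-fold higher, against 14.8% of 843 genes.

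Among AP-1 subunits, Fos (ENSMUSG00000021250, chr12:85473890-85477273, plus strand) had 705 CPM (679 to 732) in macroscopic and 287 CPM (256 to 321) in early hepatocyte barcodes, a 2.46-fold difference (2.18 to 2.78). The Fos ratio depended on the weighting and choice of barcodes: its log2 value, 1.30 over summed UMIs, was 0.28 with equal weight per barcode, -0.40 after thinning to 1000 UMIs and 3.45 over barcodes of exactly 1 gate. Atf3 (ENSMUSG00000026628), a stress-induced AP-1 partner, had 626 CPM (602 to 652) in the macroscopic and 64.9 CPM (50.5 to 82.1) in the early sum, 9.65-fold higher (7.60 to 12.5). Fosb was lower in level, at 60.4 CPM macroscopic and 6.58 CPM early, with its 7 early UMIs all in 1 barcode. The Jun genes differed less between the stages. Jun had 471 CPM in macroscopic and 511 CPM in early barcodes, a ratio of 0.922 (0.838 to 1.02), while Junb had 451 and 296 CPM and Jund 662 and 454 CPM, ratios of 1.52 and 1.46. Fosl2 rested on 37 macroscopic and 6 early UMIs, with a ratio of 1.69 (0.708 to 4.91).

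Of the other immediate-early transcription factors, the zinc-finger factor Egr1 had 639 CPM (614 to 665) in macroscopic and 106 CPM (87.6 to 128) in early barcodes, 6.01-fold higher (4.98 to 7.33). Nr4a1, an orphan nuclear receptor, had 35.6 CPM in the macroscopic and 4.70 CPM in the early sum, and 55.8% of its macroscopic UMIs came from 1 barcode. Egr2 had 27 macroscopic and 0 early UMIs, at least 2.47-fold higher against a floor of 3 counts over the early sum. Klf6 had 142 CPM macroscopic and 110.0 CPM early, a ratio of 1.29 (1.05 to 1.58), and Klf2 14.5 and 7.52 CPM. Both Krüppel-like factors were within 2-fold over summed UMIs, but Klf2 was at 9.65 CPM macroscopic and 30.3 CPM early with equal weight per barcode, and at 15.3 and 4.34 CPM over barcodes of exactly 1 gate.

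The feedback regulators split. Ier2, Ier3 and Ier5, short-lived immediate-early response proteins, had 510.0, 98.6 and 250.5 CPM in macroscopic and 182, 17.9 and 61.1 CPM in early barcodes, ratios of 2.80, 5.52 and 4.10. Dusp1, a phosphatase that inactivates stress-activated kinases, had 214 CPM macroscopic and 88.4 CPM early, a ratio of 2.42 (1.95 to 3.03). The RNA-decay factors Zfp36 and Zfp36l1 had ratios of 1.67 and 1.15, and Socs3, an inhibitor of JAK-STAT signalling, 1.54. Nfkbia, the inhibitor of NF-κB, went the other way, at 122 CPM (111 to 134) in macroscopic and 169 CPM (145 to 196) in early barcodes. Cyr61, a secreted matrix protein also named Ccn1, had 348 CPM macroscopic and 152 CPM early, a ratio of 2.28 (1.94 to 2.70). With equal weight per barcode Cyr61 had 230.5 CPM macroscopic and 209.9 CPM early, and Dusp1 147 and 95.6 CPM. Over barcodes of exactly 1 gate Cyr61 had 356 and 57.6 CPM, and Dusp1 222 and 52.1 CPM.

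Among inducible chaperones, Hsph1 (ENSMUSG00000029657, chr5:149614287-149636376, minus strand), a nucleotide exchange factor, had 230.4 CPM (215 to 246) in macroscopic and 16.0 CPM (9.31 to 25.6) in early hepatocyte barcodes, 14.4-fold higher (8.95 to 24.8). Hspb1 (ENSMUSG00000004951), a small heat-shock protein, had 1164 CPM in the macroscopic and 131 CPM in the early sum, 8.90-fold higher (7.52 to 10.6). The J-domain co-chaperone Dnajb1 had 428 CPM macroscopic and 61.1 CPM early, 7.0-fold higher (5.47 to 9.12). These 3 had the largest ratios of the heat-shock genes. The related co-chaperone Dnaja1 had 516 and 268 CPM, 1.93-fold (1.70 to 2.19), and the co-chaperone Bag3 74.4 and 32.0 CPM, 2.33-fold. Hsp90aa1, the inducible HSP90, had 1399 CPM macroscopic and 758 CPM early, 1.85-fold (1.71 to 1.99).

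With equal weight per barcode, 14 of 34 members were at least 2-fold higher, against 13% of 10332 genes. Lower were 2, Klf2 and Jun, at log2 ratios of -1.65 and -1.01, against 17.7% of genes. The members' median log2 ratio was 0.87 with this weighting, against -0.11 over all genes. Junb, Klf6 and Hspa1a (0.61, 0.36 and 0.36 over summed UMIs) were then at -0.11, -0.59 and -0.85. The neighbouring genes Hspa1a and Hspa1b, which encode the same inducible chaperone, differed in ratio. Hspa1b had 638 CPM macroscopic and 150.5 CPM early, 4.24-fold higher (3.61 to 5.01). Hspa1a had 170.4 CPM macroscopic and 133 CPM early, a ratio of 1.29 (1.07 to 1.55), and 44.5% of its macroscopic UMIs came from 1 barcode, without which the log2 ratio was -0.09. Over barcodes of exactly 1 gate Hspa1a had 176 CPM macroscopic and 44.5 CPM early, 3.95-fold higher. No run of 98 bases (the read length) in the last 500 transcript bases of either gene occurs in another annotated transcript. Among constitutive and organelle chaperones, Hspa8 had 2629 and 1120 CPM and Hsp90ab1 2931 and 1185 CPM, ratios of 2.35 and 2.47. Hspa8 is uncertain, because 79.4% of such runs in it also occur in annotated pseudogenes; the shares were 34.7% for Hspe1 and 5.21% for Hspb1. The mitochondrial chaperonin genes Hspe1 and Hspd1, which lie head to head on chromosome 1, had 1723 and 907 CPM in macroscopic and 474 and 315 CPM in early barcodes, ratios of 3.64 and 2.88. Hspa5, the chaperone of the endoplasmic reticulum, had 1958.5 CPM (1915 to 2003) macroscopic and 532 CPM (489 to 578) early, 3.68-fold higher. Some members overlap other genes: Jun the antisense Junos, Junb Prdx2, Hspa1a Gm20481, and Hspe1 and Hspd1 each other, on the opposite strand, and Dusp1 AC122252.4 and AC122252.1, Bag3 2610306O10Rik and Dnaja1 Mir207 on the same strand. The sources used here do not say whether strand was used in counting, so reads of such pairs may not be told apart.

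The shift of heat-shock RNA ran through most hepatocyte barcodes, whereas that of immediate-early RNA sat in few. Heat-shock genes took a median of 1.25% of a macroscopic barcode's UMIs and 0.498% of an early one's. The lower quartile of the macroscopic barcodes (1.05%) was above the upper quartile of the early ones (0.556%), and 34 of 45 macroscopic against 4 of 63 early barcodes reached 1%. For immediate-early genes the median was 0.123% in macroscopic and 0.155% in early barcodes, not higher in the macroscopic library. The 13 macroscopic barcodes at or above 0.5% held 88.2% of the class's immediate-early UMIs and 40.1% of all its UMIs. Their median depth was 131975 UMIs, against 69130 UMIs in the other macroscopic barcodes. With each barcode given equal weight, immediate-early genes summed to 4271 CPM macroscopic and 3433 CPM early, and heat-shock genes to 13716 and 5729 CPM. Median depth was 107248 UMIs in macroscopic and 16074 UMIs in early barcodes and mitochondrial UMIs 7.59% and 7.84%. The part of depth in these differences was not tested beyond the equal weights and the thinning to 1000 UMIs.

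**Figure D2:**
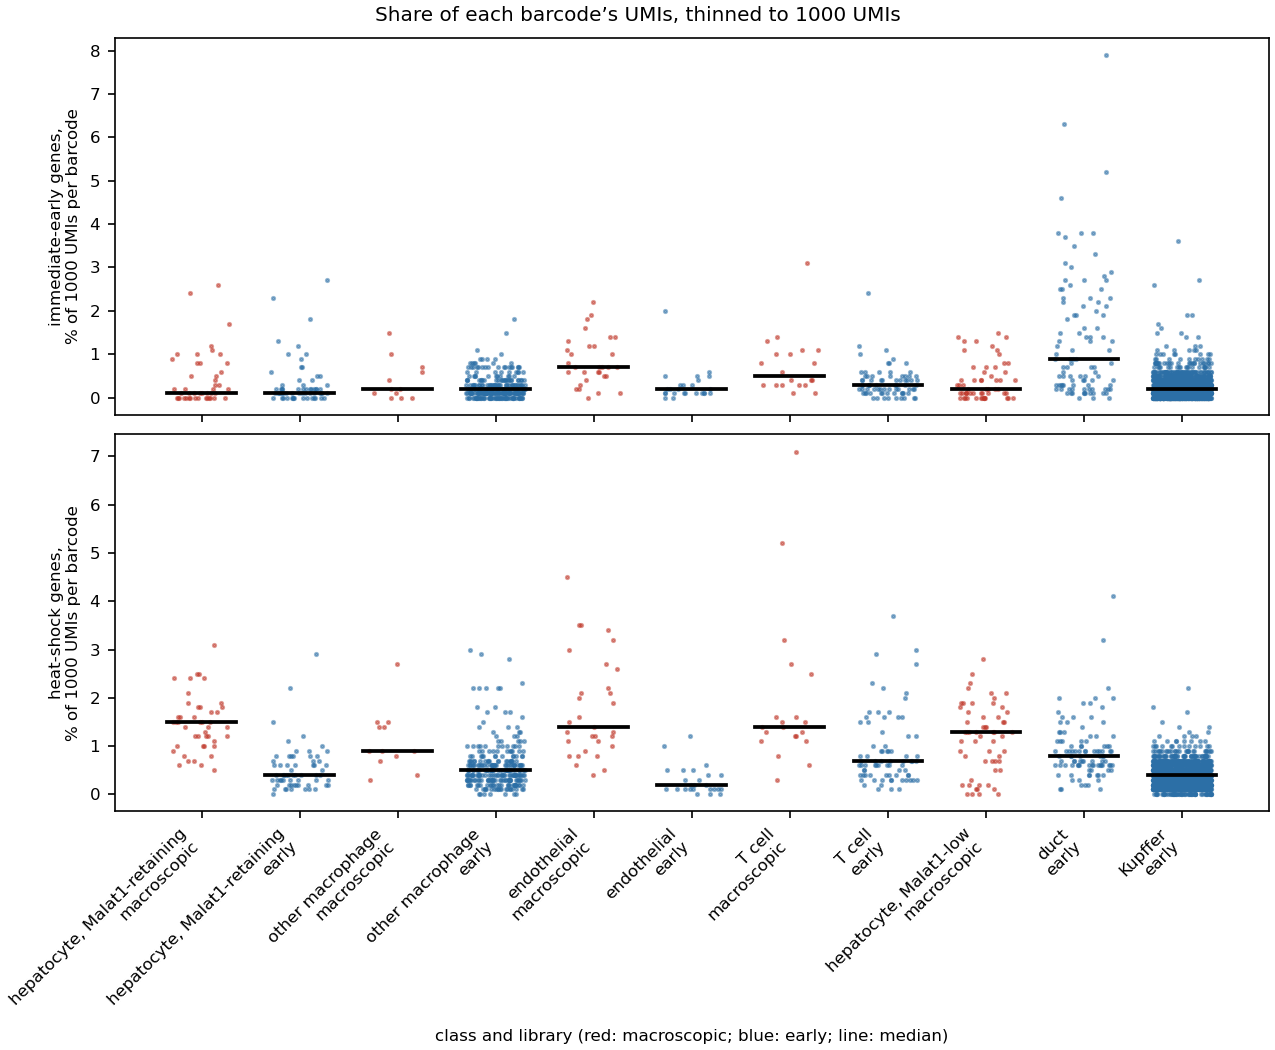
Share of each barcode's UMIs from the 22 immediate-early genes (upper panel) and the 13 heat-shock genes (lower panel), in percent of 1000 UMIs drawn per barcode, by class and library (red: macroscopic; blue: early; points spread sideways; line: median). Heat-shock medians of thinned hepatocyte barcodes were 1.5% macroscopic and 0.4% early, while both immediate-early medians were 0.1%.

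The same 2-fold limit was applied to the other classes present in both libraries. In other macrophages, 12 macroscopic and 296 early barcodes, 17 of 34 measured members were at least 2-fold higher in the macroscopic sum, against 11.5% of 8381 genes, and 3 were lower, against 18.3%. The 3 were Zfp36l1, Egr2 (3 macroscopic and 49 early UMIs, ratio 0.0833 to 1.29) and Socs3 (4 and 60 UMIs, 0.120 to 1.23). After thinning, 8 of 22 measured members were higher, against 15.7% of genes. Over summed UMIs the members' median log2 ratio was 1.03, against -0.17 over all genes. After thinning these medians were 0.85 and 0.20. Cyr61, with 5 and 1 UMIs, was not measured. Fosb had 176 CPM macroscopic and 16.8 CPM early, 10.5-fold higher (6.97 to 15.9), with 50.8% of its macroscopic UMIs in 1 barcode. Jund had 1125 CPM macroscopic and 272 CPM early, 4.14-fold (3.65 to 4.69). Zfp36l1 was lower, at 44.8 CPM (25.6 to 72.7) macroscopic and 116 CPM (103 to 131) early. Bag3, Hspd1, Dnaja1 and Hsp90aa1 had ratios of 5.78, 4.36, 3.94 and 3.56, while Hspa1b had 484 CPM macroscopic and 494 CPM early, a ratio of 0.979 (0.830 to 1.15). Hspb1 had 509 CPM macroscopic and 9.02 CPM early, but 96.7% of its macroscopic UMIs lay in 1 barcode. In barcodes of exactly 1 gate it had 22.9 and 7.52 CPM.

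In T cells, 20 macroscopic and 76 early barcodes, 17 of the 25 measured members were at least 2-fold higher in the macroscopic sum, against 10.8% of 2860 genes, and 0 were lower, against 12.4%. The median log2 ratio was 1.23 for the members and -0.09 for all genes. The 10 members not measured were Fosb, Fosl2, Egr1, Egr2, Klf4, Ier3, Socs3, Cyr61, Hspb1 and Bag3, each with under 20 UMIs in both sums together. Nr4a1, which responds to T cell receptor signals, had 333 CPM (249 to 437) in macroscopic and 21.3 CPM (6.93 to 49.8) in early T cells, 15.6-fold higher (6.28 to 50.1), with 44.2% of the macroscopic UMIs in 1 barcode. Klf2, a factor of resting T cells, had 1403 CPM (1224 to 1602) macroscopic and 504 CPM (417 to 603) early, a ratio of 2.79. Fos had 410.1 and 55.5 CPM, and Zfp36l1 602 and 256 CPM. Hspa1a had 3531 CPM (3242 to 3838) macroscopic and 1396 CPM (1249 to 1556) early, 2.53-fold higher (2.20 to 2.91). Hsp90aa1 had 2557 and 572 CPM, 4.47-fold (3.67 to 5.48), and Dnajb1 801 and 188 CPM, 4.26-fold (3.002 to 6.16). Median depth was 7641 UMIs in macroscopic and 2678 UMIs in early T cell barcodes.

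In endothelial cells, 31 macroscopic and 25 early barcodes, 24 of 34 measured members were at least 2-fold higher in the macroscopic sum, against 23.6% of 6345 genes, and 0 were lower, against 12.0%. The median log2 ratio was 1.90 for the members and 0.21 for all genes; Egr2, with 7 and 0 UMIs, was not measured. The early sum held 84098 UMIs, so many early values rest on few counts, and other cells' markers stood in both sums, as given above. The deepest macroscopic barcode held 176331 of the 742745 macroscopic UMIs. After thinning, 11 of 14 measured members were higher, against 30.0% of 390 genes. Over barcodes of exactly 1 gate (29 macroscopic, 17 early) 23 of 34 were higher, against 17.5% of 4801 genes. Then 1 was lower, against 13.5%. Ier3 had 108 CPM macroscopic and 251 CPM early (9 UMIs) in these barcodes. Fos had 942 CPM macroscopic and 83.2 CPM early (7 UMIs), 11.3-fold higher (5.47 to 28.3). Atf3, Nr4a1 and Socs3 had 203, 99 and 175 macroscopic and 0 early UMIs, at least 7.66-fold, 3.74-fold and 6.60-fold higher. Klf2, which is induced by blood flow in endothelium, had 757 CPM macroscopic and 499 CPM early, 1.52-fold (1.11 to 2.13). Over barcodes of exactly 1 gate Klf2 had 971 CPM macroscopic and 922 CPM early. Klf4, its relative, had 221 CPM macroscopic and 23.8 CPM early, the second from 2 UMIs. Hspa1a had 2394 CPM (2284 to 2508) macroscopic and 166 CPM (91.0 to 279) early, 14.4-fold higher (8.55 to 26.4), and Hspb1 2476 and 71.4 CPM, with all 6 early UMIs in 1 barcode.

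Across the 4 classes, 25 members were measured in each, and 6 of them (Atf3, Nr4a1, Hsph1, Dnajb1, Hspe1 and Hspd1) were at least 2-fold higher in all 4. Of 2388 genes measured in all 4 classes, 2.05% were. Hspd1 had the narrowest spread of these, with log2 ratios of 1.46 to 2.12. Over barcodes of exactly 1 gate, Nr4a1 was at a log2 ratio of 0.98 in endothelial cells and Atf3 was not measured in T cells. Junb, Klf6, Zfp36 and Nfkbia were within 2-fold in every class over summed UMIs. Over barcodes of exactly 1 gate Junb and Zfp36 passed it in hepatocytes (1.70 and 1.22) and Klf6 in endothelial cells (1.40), and with equal weight Junb passed it in endothelial cells (1.33) and Zfp36 and Nfkbia in T cells (1.08 and 1.12). Over summed UMIs Nfkbia's log2 ratios ran from -0.91 in other macrophages to 0.46 in T cells. Hspa1a and Hspa1b were 2-fold higher in 2 classes each, endothelial and T cells for Hspa1a and hepatocytes and endothelial cells for Hspa1b. The 4 comparisons share the same pair of libraries.

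**Figure D3:**
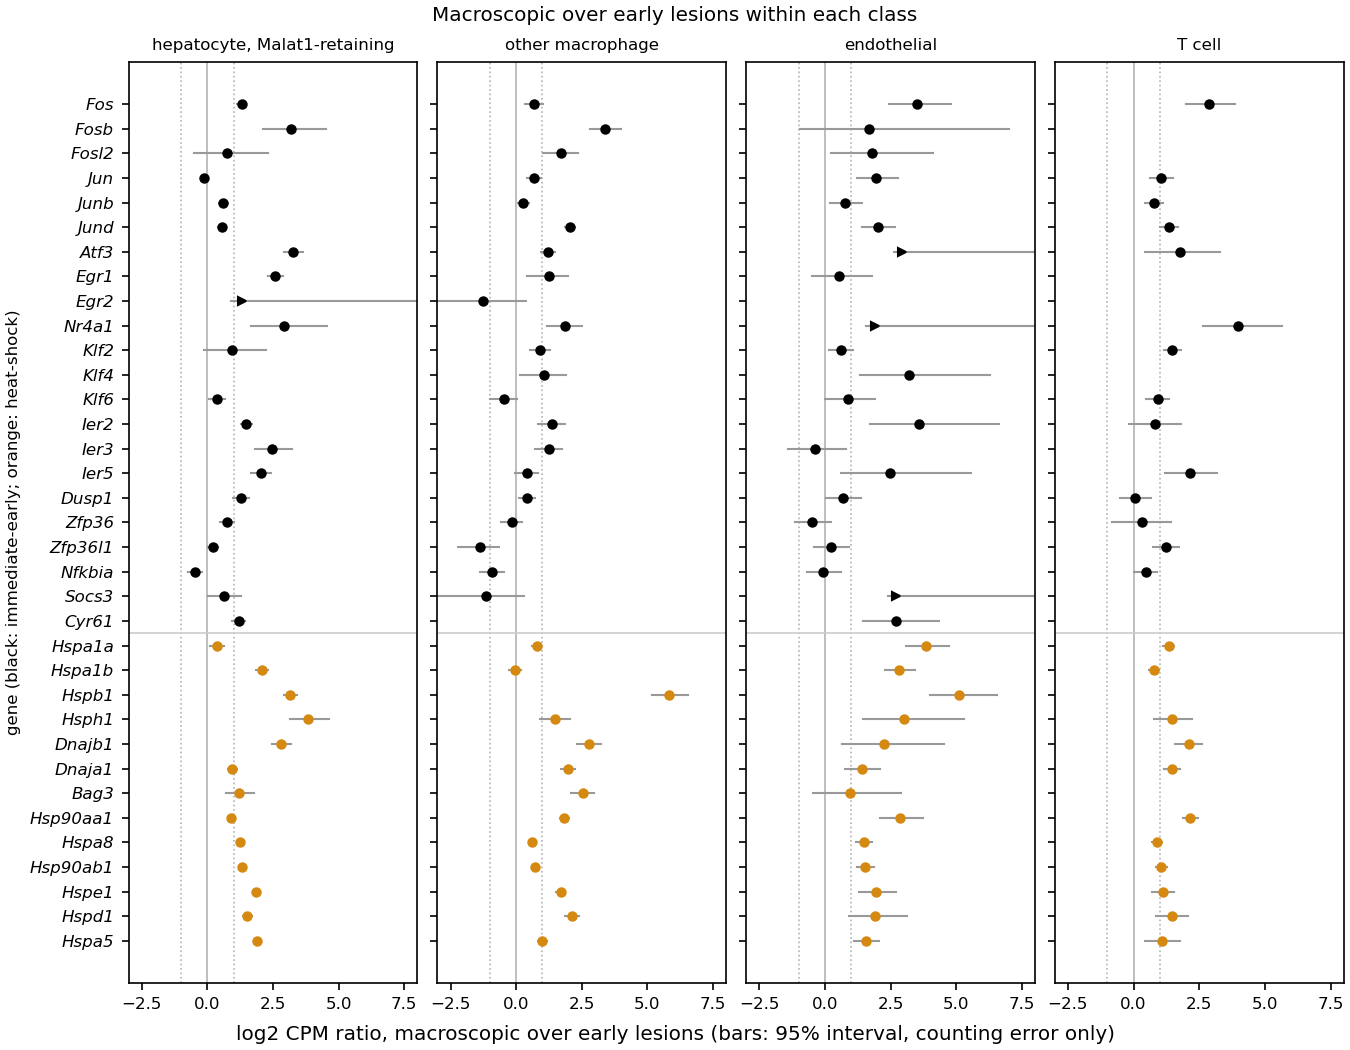
Log2 CPM ratio of each measured gene, macroscopic over early lesions, in 4 classes (panels); bars are 95% intervals for counting error, cut at the axis limits, and right-pointing triangles are lower bounds where the early count was 0. Black points are immediate-early genes and orange points heat-shock genes; dotted lines mark 2-fold. Heat-shock medians were 1.53 in hepatocytes, 1.71 in other macrophages, 1.96 in endothelial cells and 1.34 in T cells.

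Within the macroscopic library the genes had different leading classes. T cells had the highest level of 7 of 13 heat-shock genes, 5 of them without overlap of the interval with the next class. How often each class led among all genes was not counted, so the count cannot be read as particular to heat-shock genes. Hspa1a had 3531 CPM in T cells, 2394 CPM in endothelial cells and 960 CPM in other macrophages, but 170.4 CPM in Malat1-retaining and 112 CPM in Malat1-low hepatocytes. Hspb1 ran the other way, with 2476 CPM in endothelial cells, 1595 CPM in Malat1-low and 1164 CPM in Malat1-retaining hepatocytes, and 12.8 CPM (2 UMIs) in T cells. Hspe1, Hspd1 and Hspa5 were highest in hepatocytes. Egr1 was 4.65-fold higher in Malat1-retaining hepatocytes than in the next class, endothelial cells (137 CPM). Klf4 led in endothelial cells (221 CPM), 4.93-fold above other macrophages, Fos and Socs3 were also highest in endothelial cells and Fosb in other macrophages, and Nr4a1, Klf2, Klf6, Junb, Zfp36l1 and Nfkbia led in T cells with no overlap. For Jun, Jund, Atf3, Ier2, Ier3, Ier5, Dusp1, Zfp36, Cyr61, Fosl2 and Egr2 the intervals of the 2 highest classes overlapped.

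Shares of barcodes with a UMI were compared at equal depth. Fos was detected in 41.9% of macroscopic endothelial, 20% of Malat1-retaining hepatocyte, 17.2% of Malat1-low hepatocyte, 16.7% of other-macrophage and 10% of T cell barcodes thinned to 1000 UMIs (77.4%, 55.6%, 67.2%, 75% and 45% unthinned). In the early library the thinned shares were 48.5% in duct, 11.1% in hepatocyte, 9.12% in other-macrophage, 6.58% in T cell, 6.21% in Kupffer and 4% in endothelial barcodes. Hspa1a was detected in 70% of macroscopic and 47.4% of early T cell barcodes after thinning (75% and 57.9% before). Hspb1 was detected in 74.2% of thinned macroscopic endothelial and 40% of thinned macroscopic hepatocyte barcodes, against 0% of T cell barcodes (93.5%, 86.7% and 10% unthinned). In early Kupffer barcodes, at a median of 2557 UMIs, it was detected in 0.259% (0.932% unthinned), given here as the share in a class that should lack the gene, in another library. Free RNA was not measured. Cyr61 was detected in 54.5% of thinned early duct barcodes and 0.621% of Kupffer barcodes (75.2% and 1.24% unthinned, median depths 11635 and 2557 UMIs).

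In the early library the leading class was read for each gene. Duct cells had the highest level of 17 of 22 immediate-early genes, 14 of them with no overlap of the interval with the next class. They were also highest for 5 of 13 heat-shock genes. How often duct cells led among all genes was not counted. No share of all genes stands beside these counts, so they cannot be read as particular to the listed genes. Fos had 2350.0 CPM (2273 to 2429) in duct barcodes, against 287 CPM in the next class, Malat1-retaining hepatocytes, an 8.19-fold difference. Jun had 2165 CPM, Junb 2325 CPM, Egr1 830.0 CPM and Cyr61 1329 CPM in duct barcodes, 4.24-fold, 4.19-fold, 7.81-fold and 8.72-fold above the next class. Atf3 had 926 CPM, 4.81-fold above other macrophages (193 CPM), and Dusp1 895 CPM, 3.29-fold above Kupffer cells (272 CPM). Early T cells led for Hspa1a (1396 CPM), Hspa1b (1686 CPM) and Hsph1 (115 CPM) without overlap, and Klf2 had 504 CPM in T cells, 499 CPM in endothelial cells, 371 CPM in Kupffer cells and 7.52 CPM in hepatocytes. Ier5 was highest in other macrophages (109 CPM), 1.78-fold above hepatocytes.

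**Figure D4:**
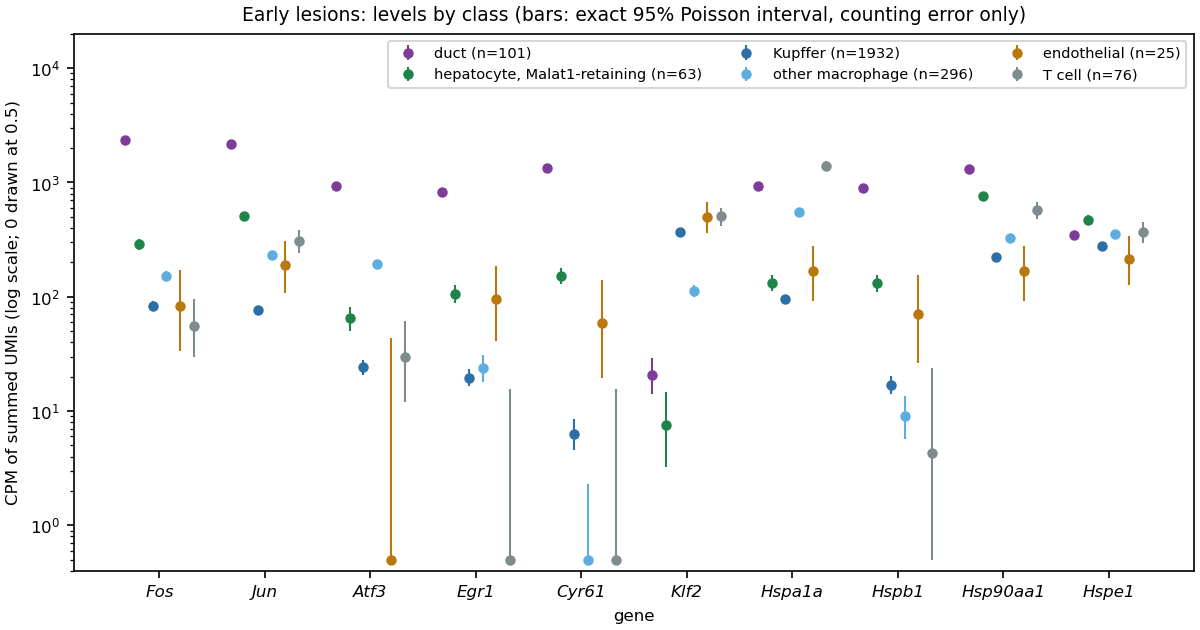
CPM of 10 genes in the 6 early classes with at least 10 barcodes (log scale; bars: 95% intervals for counting error; a count of 0 is drawn at 0.5). Duct points are the highest for Fos, Jun, Atf3, Egr1, Cyr61, Hspb1 and Hsp90aa1, and Hspa1a is highest in T cells.

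Set against Malat1-retaining hepatocytes of the same library (63 barcodes), the 101 duct barcodes had 23 of 33 measured members at least 2-fold higher, against 23.3% of 10225 genes, and 0 lower, against 9.93%. Barcodes of exactly 1 gate (88 duct, 50 hepatocyte) gave 24 of 33 higher, against 27.8% of genes. The count over summed UMIs was 18 of 20 for immediate-early and 5 of 13 for heat-shock genes, with medians of 2.38 and 0.79 on the log2 scale against 0.39 over all genes; Egr2 and Klf4 were not measured. Atf3 (14.3-fold), Dusp1 (10.1-fold), Fosb (10.1-fold) and Cyr61 (8.72-fold) had the largest ratios, and Ier5 was lower in duct cells (42.5 CPM, against 61.1 CPM in hepatocytes). Hspa1a, Hspa1b and Hspb1 were 7.01-fold, 6.84-fold and 6.83-fold higher, while the mitochondrial Hspe1 and Hspd1 were lower, at 345 and 224 CPM in duct and 474 and 315 CPM in hepatocyte barcodes. Duct barcodes varied widely: the immediate-early share had a median of 0.923% and quartiles of 0.362% and 2.25%. The 49 barcodes at or above 1% held 85.9% of the immediate-early UMIs and 49.9% of all UMIs of the class.

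The level in early hepatocytes itself leaned on barcodes that passed both gates. Of the 63, 10 also passed the duct gate; they held 11.9% of the class's UMIs but 80.7% of its Fos, 78.3% of its Atf3, 70.2% of its Hspa1a, 54.0% of its Jun and 51.8% of its Hspb1 UMIs. In these 10 barcodes Fos had 1947 CPM, against 63.0 CPM in the 53 other hepatocyte barcodes. Atf3 had 427 CPM in the 10 and 16.0 CPM in the 53. Whether they are cells of mixed identity or 2 cells in a droplet was not tested. Barcodes of exactly 1 gate (43 macroscopic, 50 early) gave Fos 702 CPM macroscopic and 64.1 CPM early, and 28 of 34 members at least 2-fold higher in the macroscopic sum, where 13.2% of 10090 genes were. These were the 21 members that passed over summed UMIs and Junb, Klf2, Zfp36, Socs3, Hspa1a, Dnaja1 and Hsp90aa1.

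Between early hepatocytes (63 barcodes) and Kupffer cells (1932 barcodes), members differed in both directions, at counts not far from the shares of all genes. At least 2-fold higher in hepatocytes were 12 of 35 members, against 27.7% of 11187 genes, and 5 were 2-fold lower, against 22.3%. Over barcodes of exactly 1 gate 8 of 34 were higher, against 26.6% of 10838 genes, and 7 were lower, against 25.2%. The members' median log2 ratio was then -0.05, beside 0.06 over all genes. Cyr61 had 152 CPM in hepatocytes and 6.34 CPM in Kupffer cells, and Jun 511 and 76.5 CPM, ratios of 24.05 and 6.68. Klf2 was 49.3-fold lower in hepatocytes (24.96 to 114), Klf4 had 0 hepatocyte and 180 Kupffer UMIs (at least 9.19-fold lower against a floor of 3 counts over the hepatocyte sum), and Fosl2, Nr4a1 and Dusp1 were 8.65-fold, 6.15-fold and 3.08-fold lower. Fos, at 287 CPM in hepatocytes and 83.8 CPM in Kupffer cells, turned to a log2 ratio of -0.36 over barcodes of exactly 1 gate, and Junb, Hspa1a and Hspa1b turned to -0.30, -0.45 and -0.28. Atf3, Socs3 and Dnajb1, more than 2-fold higher over summed UMIs, were then at 0.22, 0.18 and 0.64. Among heat-shock genes Hspb1 had 131 and 17.0 CPM (7.69-fold; over barcodes of exactly 1 gate 71.7 and 2.15 CPM, 33.3-fold) and Hsp90aa1 758 and 224 CPM (3.38-fold). Hspa8, Hsp90ab1 and Hspa5 were within 1.14-fold.

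Other macrophages (296 barcodes) and Kupffer cells of the early library differed in a few stress genes. At least 2-fold higher in other macrophages were 8 of 35 members, against 5.58% of 10707 genes, and 2 were lower (Klf2 and Cyr61), against 16.7%. Atf3 had 193 CPM in other macrophages and 24.05 CPM in Kupffer cells, 8.01-fold higher (6.70 to 9.62). Hspa1a had 553 and 95.3 CPM and Hspa1b 494 and 103 CPM, 5.80-fold and 4.78-fold higher, while Hsp90ab1, Hspa5 and Klf6 were within 1.08-fold. Egr2, Jun, Junb, Ier5 and Socs3 made up the rest of the 8, with ratios of 4.81, 3.04, 2.60, 2.60 and 2.11. Klf2 had 112 CPM in other macrophages and 371 CPM in Kupffer cells. Of the 296 other-macrophage barcodes 96 also passed the Kupffer gate and stand in both sums. Over barcodes of exactly 1 gate, 196 and 1825, the 8 members were joined by Fos, Ier3, Hspa8 and Hspb1, 12 in all against 6.95% of genes, and 3 were lower, against 24.1%. Atf3 then had 241 CPM in other macrophages and 13.1 CPM in Kupffer cells (18.4-fold), Hspa1a 709 and 60.6 CPM (11.7-fold), and Klf2 43.2 and 389 CPM (8.99-fold lower). Hspb1 turned direction, from 12 and 13 UMIs, with a log2 ratio of 1.804, against -0.91 over all gated barcodes.

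The macroscopic library also held 58 hepatocyte barcodes with almost no Malat1 (0.00208% of UMIs, against 0.511% in the 45 Malat1-retaining ones). Their median depth was 17791 UMIs, against 107248 UMIs, and their median mitochondrial share 0.220%, against 7.59%. None of 34 measured members was 2-fold higher in Malat1-low than in Malat1-retaining barcodes, where 1.62% of 10034 genes were, and 13 were lower, where 48.6% were. The members' median log2 ratio of -0.73 stood beside -0.93 over all genes. After thinning to 1000 UMIs the order of the medians turned, at -0.29 for 18 measured members and 0.27 over 723 genes. Then 1 member was 2-fold higher and 3 were lower, against 8.44% and 9.13% of genes. Median-of-ratios scaling subtracts the centre of the log2 ratios, which was -0.86. With it 7 members were 2-fold higher, against 24.5% of genes, and 6 were lower, against 30.3%. Hsph1 had 25.05 CPM in Malat1-low and 230.4 CPM in Malat1-retaining barcodes, 9.20-fold lower (6.56 to 13.3), and Bag3 11.4 and 74.4 CPM, 6.50-fold lower. Egr1, Zfp36l1 and Fosb were 5.58-fold, 6.19-fold and 7.68-fold lower. Jund (981 and 662 CPM), Hspb1 (1595 and 1164 CPM) and Hspa8 (3499 and 2629 CPM) were higher in Malat1-low barcodes, by 1.48-fold, 1.37-fold and 1.33-fold. Atf3 (596 and 626 CPM), Junb (449 and 451 CPM) and Socs3 (38.6 and 39.0 CPM) differed by less than counting error.

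**Figure D5:**
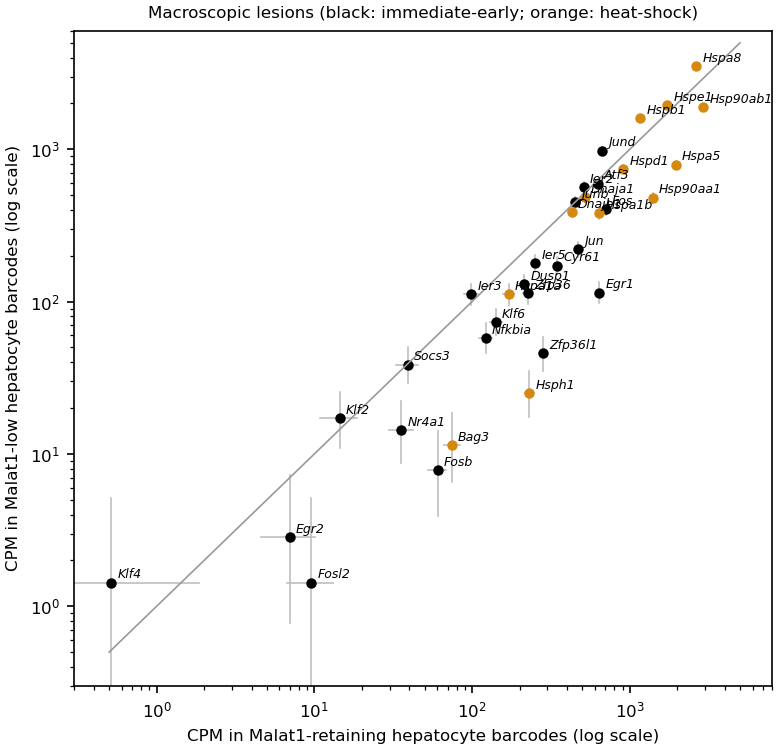
CPM of each gene in Malat1-low (vertical axis) against Malat1-retaining (horizontal axis) hepatocyte barcodes of the macroscopic library, both on log scales; bars are 95% intervals for counting error and the line marks equal levels. Black points are immediate-early and orange points heat-shock genes; Hsph1 (25.05 and 230.4 CPM) and Egr1 (114 and 639 CPM) lie far below the line.

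Related genes outside the 35 were read in Malat1-retaining hepatocytes, macroscopic over early, from 5 lists of 101 genes, beside 11.4% of all measured genes higher, 13.9% lower and a median of -0.09. Of 38 other measured immediate-early genes 17 were at least 2-fold higher and 5 lower, with a median log2 ratio of 0.34. Dusp5, a phosphatase of ERK kinases, had 261 macroscopic UMIs and 1 early UMI, a ratio of 71.7 (12.8 to 2841.5). Phlda1 and Nfkbiz had 210.2 and 108 CPM in macroscopic and 22.6 and 16.0 CPM in early barcodes, while Id1 (12.1 and 90.3 CPM) and Sgk1 (16.3 and 108 CPM) were lower. Of 27 other cytosolic chaperones and co-chaperones 8 were higher and 3 lower (median 0.51). They included St13 (3.12-fold higher), Dnajb4 (2.53-fold) and Cacybp (2.43-fold), and the small heat-shock protein Cryab, at 2.58 CPM macroscopic and 37.6 CPM early. The heat-shock factors Hsf1 and Hsf2 and their binding protein Hsbp1 were all within 2-fold, at 27.6, 30.7 and 194 CPM macroscopic and 20.7, 22.6 and 187 CPM early.

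Of 20 endoplasmic reticulum stress genes 9 were at least 2-fold higher and 1 lower in macroscopic hepatocytes, with a median log2 ratio of 0.98. Hyou1, Creld2 and Sdf2l1, chaperones and folding factors of that compartment, had 98.4, 271 and 300.3 CPM in macroscopic and 12.23, 48.9 and 61.1 CPM in early barcodes. Trib3 had 7.75 and 27.3 CPM, and Serpinh1 9.81 and 12.23 CPM. All 6 mitochondrial chaperones besides Hspe1 and Hspd1 were within 2-fold (median 0.25), among them Lonp1, Dnaja3 and Trap1 at ratios of 1.44, 1.38 and 1.35 and Clpp and Grpel1 at 0.872 and 0.912. In endothelial cells 11 of 19 measured endoplasmic reticulum stress genes were 2-fold higher and 0 lower, against 23.6% and 12.0% of all genes. In other macrophages 5 of 18 were higher and 0 lower, against 11.5% and 18.3%. In T cells 2 of 11 were higher and 1 lower, against 10.8% and 12.4%, and their median of -0.12 stood beside -0.09 over all genes. The other immediate-early genes had 10 of 36 higher and 5 lower in endothelial cells, with a median of 0.217 beside 0.215 over all genes. In other macrophages 10 of 39 of them were higher and 5 lower (median 0.07, beside -0.17). In T cells 7 of 18 were higher and 3 lower (median 0.85, beside -0.09). The shares of all genes in these classes are those just given.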

How the data were processed

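Raw UMI counts per gene and barcode were taken from the matrices the authors deposited. Per the submitters' processing notes, Cell Ranger 3.0.2, Seurat 2.3.0 and mm10 were used; the gene annotation, the barcode filter and the counting by strand are not given in the sources used here. The libraries shared 0 barcodes. Barcodes with at least 1000 UMIs entered every gate they passed: albumin at 0.5% of UMIs (split at 0.05% Malat1), duct, endothelial and T cell genes at 2 UMIs, and Kupffer and other-macrophage genes at 3 UMIs. No doublet caller was run; barcodes of several gates were counted and left out in an alternative. UMIs were summed per class (at least 10 barcodes) and divided by the class total to give CPM. Intervals for levels are exact Poisson, for shares Clopper-Pearson, and for ratios exact conditional binomial.

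A gene was measured with at least 20 UMIs over both sums, and a ratio of 2-fold was the limit. A count of 0 was set to a floor of 3 counts over the sum; where that bound gave no direction, the gene stayed in the number measured with no ratio. All 35 genes are named, and of each further list up to 3 genes with the highest and 2 with the lowest log2 ratio in Malat1-retaining hepatocytes. Genes and lists were chosen with earlier results of these data known, and 2 comparisons (duct over hepatocyte, other macrophage over Kupffer) were added after the data were seen. Of the 101 genes of the 5 further lists, 1 (Cct6a) was not analysed here. Thinning to 1000 UMIs used seed 1. The ratio and thinning steps were tested on simulated data. Alternatives changed the gates, depth, mitochondrial limit, weighting, scaling, count filter and Malat1 limit. Python 3.11.15, numpy 2.4.6, scipy 1.17.1, pandas 2.3.3 and matplotlib 3.10.9 were used. Gene positions and overlaps come from GENCODE M21 (GRCm38).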

Additional observations from a re-analysis of the deposited data

Results flagged for a closer look

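Zfp36l1 differed in opposite directions between the stages in 2 classes. Its log2 ratio, macroscopic over early, was 1.23 in T cells and -1.38 in other macrophages, and both counting intervals lay on 1 side of equal levels. It was picked out because the same contrast had opposite signs in these classes. The difference between the classes was not tested, since each stage has 1 library. The 12 macroscopic other-macrophage barcodes held 16 Zfp36l1 UMIs, and 3 of the 12 also passed the Kupffer gate.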

How the results depend on the processing

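No paired analysis was possible because each stage has 1 library; for the same reason no replicate could be left out. Leaving out the barcode with the most member UMIs was an alternative chosen after seeing the data. The count of members at least 2-fold higher in the macroscopic library ran over the alternatives from 8 to 28 in Malat1-retaining hepatocytes, from 8 to 19 in other macrophages, from 11 to 27 in endothelial cells and from 12 to 21 in T cells. Thinning to 1000 UMIs gave the 8, 8 and 11, where fewer members had 20 UMIs. Lower members numbered 1 in other macrophages (thinned, or exactly 1 gate), 1 in endothelial cells (exactly 1 gate, or doubled gate minimum), 1 in T cells (no filter on counts) and 2 in hepatocytes (equal weight). For Malat1-low over Malat1-retaining barcodes the higher and lower counts were 7 and 6 with median-of-ratios scaling and 1 and 3 after thinning. That scaling subtracted the centre of the log2 ratios, which was -0.86 there and 0.39 for duct over hepatocyte. The centre was 0.24 for hepatocyte over Kupffer and -0.26 for other macrophage over Kupffer. Between stages it was 0.18 in endothelial cells and -0.15 in other macrophages. Hepatocyte over Kupffer counts ran from 8 to 14 higher and 4 to 7 lower, duct over hepatocyte from 16 to 25 higher, and other macrophage over Kupffer from 7 to 12 higher and 2 to 3 lower. Of 35 levels in macroscopic other macrophages 21 stayed within 2-fold after thinning; the other 63 of 64 such counts moved less.

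Of 2343 recomputed values of 264 single log2 ratios, 99 changed sign. In 35 of these, over 27 ratios and given below, the reported interval lay on 1 side of equal levels; in the other 64 it included them. The cause was not tested. Hepatocyte over Kupffer, barcodes of exactly 1 gate gave -0.36 for Fos, -0.30 for Junb, -0.45 for Hspa1a and -0.28 for Hspa1b. The doubled gate minimum gave -0.37 for Junb, -0.77 for Atf3, -0.35 for Socs3, -0.32 for Hspa1a and -0.30 for Hspa1b. Thinning gave -0.042 for Jund, 0.51 for Klf6 and 0.055 for Hsp90ab1, and equal weight 0.0007 for Hsp90ab1. Between stages in hepatocytes, thinning gave -0.40 for Fos and -0.45 for Zfp36l1, equal weight -0.11 for Junb, -0.59 for Klf6 and -0.85 for Hspa1a, and leaving out the top barcode -0.093 for Hspa1a. Equal weight gave -0.69 for Klf2, duct over hepatocyte. Other macrophage over Kupffer, Hspb1 was at 1.804 with exactly 1 gate, 1.24 with equal weight, 0.0075 with doubled gates and 0.32 without the top barcode, Dnajb1 at -0.23 after thinning, and Jund, Dusp1 and Hspa5 at 0.074, 0.13 and 0.16 with median-of-ratios scaling. Malat1-low over Malat1-retaining, median-of-ratios scaling gave 0.060 for Fos, 0.37 for Ier5, 0.14 for Dusp1, 0.25 for Hspa1a, 0.11 for Hspa1b, 0.24 for Hsp90ab1 and 0.57 for Hspd1. Depth limits the early endothelial sum and the T cell sums most, where many members rest on few UMIs.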

Other observations

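Barcodes that passed no gate also held the genes described. The 77 macroscopic ones had 2439 CPM of immediate-early and 11232.5 CPM of heat-shock genes, with hepatocyte markers at 11633 CPM and red blood cell markers at 8398 CPM. The 246 early ones had 6264 CPM of immediate-early and 4827 CPM of heat-shock genes, with red blood cell markers at 103318 CPM.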
